A study of Mus musculus with 12 samples.

Results

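The chains of the major histocompatibility complex (MHC) class I molecules were described in lungs of male wild-type C57Bl/6J mice at 4 ages. The 8 genes were taken by symbol from a table of 35275 genes, and comprised B2m and the 7 heavy chain genes H2-K1, H2-D1, H2-Q4, H2-Q6, H2-Q7, H2-T23 and H2-M3. Poly(A) RNA of whole lung was sequenced from 3 mice each at 3, 6, 12 and 24 months of age, 1 library per mouse and 12 in all. The labels give wild type for every mouse and no treatment other than age. Each of the 8 genes passed the filter on low counts, which left 16042 genes to test.

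MHC class I molecules carry short peptides from inside a cell to its surface, where CD8 T cells and natural killer cells read them. Each molecule pairs a membrane-spanning heavy chain with beta-2 microglobulin, the small soluble chain that B2m encodes and without which most heavy chains do not reach the surface. The proteasome cuts the peptides, the transporter Tap brings them into the endoplasmic reticulum, and a loading complex fits them to the heavy chain. H2-K1 and H2-D1 encode the classical heavy chains, present on nearly every nucleated cell. H2-T23 encodes Qa-1, which natural killer cells read through the receptor Cd94 with Nkg2a. H2-Q4, H2-Q6 and H2-Q7 are nonclassical genes of the Q region, H2-Q7 encoding Qa-2, and H2-M3 presents formylated peptides of bacteria and mitochondria. Interferons raise transcription of these genes in many cell types, through an interferon response element and through the S-X-Y module on which Nlrc5 acts.

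B2m lies on chromosome 2 in build mm10 (chr2:122147686-122153083, plus strand), and the 7 heavy chain genes lie on chromosome 17. H2-K1 is at chr17:33996017-34000333 on the minus strand, H2-D1 at chr17:35262730-35267499 on the plus strand and H2-T23 at chr17:36029773-36032855 on the minus strand. H2-Q4 (chr17:35379617-35385290), H2-Q6 (chr17:35424850-35430055), H2-Q7 (chr17:35439155-35443773) and H2-M3 (chr17:37270220-37274484) are all on the plus strand. Transcript GC content set B2m apart, at 41.16%, which is at percentile 13 of all genes. The heavy chain genes ranged from 51.04% for H2-M3 to 56.65% for H2-Q6, with H2-K1 at 55.28% and H2-T23 at 55.26%.

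The promoter windows of 5 of the genes are shown, since they differ in their matches to 2 short words. These words stand for 2 elements through which class I genes are known to be induced. Each window runs from 250 bases before to 50 bases after the gene start (RefSeq, GRCm38.p6), written 5′ to 3′ on the strand of the gene. Capitals mark the interferon response element core (GAAA, any 2 bases, GAAA) and the X2 box core TGACG, each searched on both strands. The windows are chr2:122147437-122147736 (plus) for B2m, chr17:34000298-34000597 (minus) for H2-K1, chr17:35424600-35424899 (plus) for H2-Q6, chr17:35438905-35439204 (plus) for H2-Q7 and chr17:36032652-36032951 (minus) for H2-T23.
B2m: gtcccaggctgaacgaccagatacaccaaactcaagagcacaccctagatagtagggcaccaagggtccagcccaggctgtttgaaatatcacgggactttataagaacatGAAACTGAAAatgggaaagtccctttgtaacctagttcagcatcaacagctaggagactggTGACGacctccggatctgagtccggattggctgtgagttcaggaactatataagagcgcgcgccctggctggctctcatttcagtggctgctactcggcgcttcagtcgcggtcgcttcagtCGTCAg
H2-K1: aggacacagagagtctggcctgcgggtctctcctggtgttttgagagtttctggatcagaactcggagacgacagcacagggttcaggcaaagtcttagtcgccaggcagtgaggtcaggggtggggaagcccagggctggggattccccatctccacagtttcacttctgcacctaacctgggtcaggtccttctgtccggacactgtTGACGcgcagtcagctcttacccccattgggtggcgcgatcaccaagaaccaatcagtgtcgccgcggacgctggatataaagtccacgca
H2-Q6: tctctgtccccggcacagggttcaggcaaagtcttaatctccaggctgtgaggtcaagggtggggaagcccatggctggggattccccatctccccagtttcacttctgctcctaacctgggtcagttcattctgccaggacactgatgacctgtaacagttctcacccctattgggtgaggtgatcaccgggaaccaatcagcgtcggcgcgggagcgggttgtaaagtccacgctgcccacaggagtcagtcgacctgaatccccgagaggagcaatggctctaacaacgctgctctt
H2-Q7: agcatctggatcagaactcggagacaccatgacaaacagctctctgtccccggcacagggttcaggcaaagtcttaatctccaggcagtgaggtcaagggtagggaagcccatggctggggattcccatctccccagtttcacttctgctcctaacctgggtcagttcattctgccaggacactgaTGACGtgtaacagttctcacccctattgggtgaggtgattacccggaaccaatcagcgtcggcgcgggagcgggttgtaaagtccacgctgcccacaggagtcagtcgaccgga
H2-T23: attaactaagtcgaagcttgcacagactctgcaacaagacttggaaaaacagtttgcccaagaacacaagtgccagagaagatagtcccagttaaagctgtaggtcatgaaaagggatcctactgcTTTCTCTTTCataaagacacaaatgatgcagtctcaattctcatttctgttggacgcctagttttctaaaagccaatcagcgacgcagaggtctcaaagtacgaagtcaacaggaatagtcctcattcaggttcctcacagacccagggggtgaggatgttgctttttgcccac
Of the 8 genes, B2m and H2-T23 matched the word searched for the interferon element, at positions -139 and -124 from the start, against 3.49% of 27025 promoter windows. Other spellings of the element were not searched, so a window without a match, such as that of H2-K1, may still hold it. The X2 core was found in the windows of 6 genes, not in those of H2-Q6 and H2-T23, against 21% of windows. The Y box core CCAAT was found in all 8, against 37.9% of windows, and the kappa B core (GGG, any 5 bases, CC) in all except H2-T23, against 50.4%. The windows of H2-Q6 and H2-Q7 are alike over long stretches and differ in the X2 core. These short words occur often, and a match is a description of the letters and not of a bound site.

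The libraries of the 24-month mice stood apart from the other 9 before any gene was tested. All libraries held between 14.7 and 21.2 M gene reads. At 24 months 17533 to 18513 genes had a read, and at the other ages 19539 to 20625 genes did. The mean GC content of the transcripts, weighted by reads, was 54.3 to 55.9% at 24 months and 50.5 to 51.8% at the other ages. A smooth on GC content and gene length accounted for 70.8% of the variance of fold changes over genes at 24 against 3 months, 31.4% at 12 against 3 months and 11% at 6 against 3 months. Every 24-month library shares this difference, so age and whatever set the GC content of these libraries cannot be told apart. Fold changes are therefore given without and with an offset that removes each library's smooth on GC content and gene length. The offset also removes any change with age that follows GC content and length.

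H2-K1 and H2-D1, the classical heavy chains, were higher in all 3 mice of 24 months than in any mouse of 3 months, and they were still higher, by less, with the offset. H2-K1 had 1144, 873.6 and 794.6 counts per M reads (CPM) in the 3 mice at 3 months, 1058, 1163 and 1028 at 6 months, 1412, 1562 and 1313 at 12 months, and 3611, 4976 and 4645 at 24 months. The 24-month mice lay above all others, the 12-month mice lay above all mice of 3 and 6 months, and the 3- and 6-month mice overlapped. At 24 against 3 months the log2 fold change of H2-K1 was 2.23 ± 0.21 (SE, adjusted p = 2.3e-07, edgeR) without the offset and 0.84 ± 0.14 (adjusted p = 0.00014) with it. H2-D1 had 3468, 4281 and 3217 CPM at 24 months, against 1293, 986.9 and 925.9 CPM at 3 months. These groups did not overlap, and the log2 fold change was 1.77 ± 0.22 (adjusted p = 2.7e-06) without the offset and 0.69 ± 0.15 (adjusted p = 0.0011) with it. Over the 4 ages H2-D1 averaged 1069 ± 197, 1169 ± 66, 1446 ± 311 and 3655 ± 556 CPM (SD, n = 3 each).

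**Figure D1:**
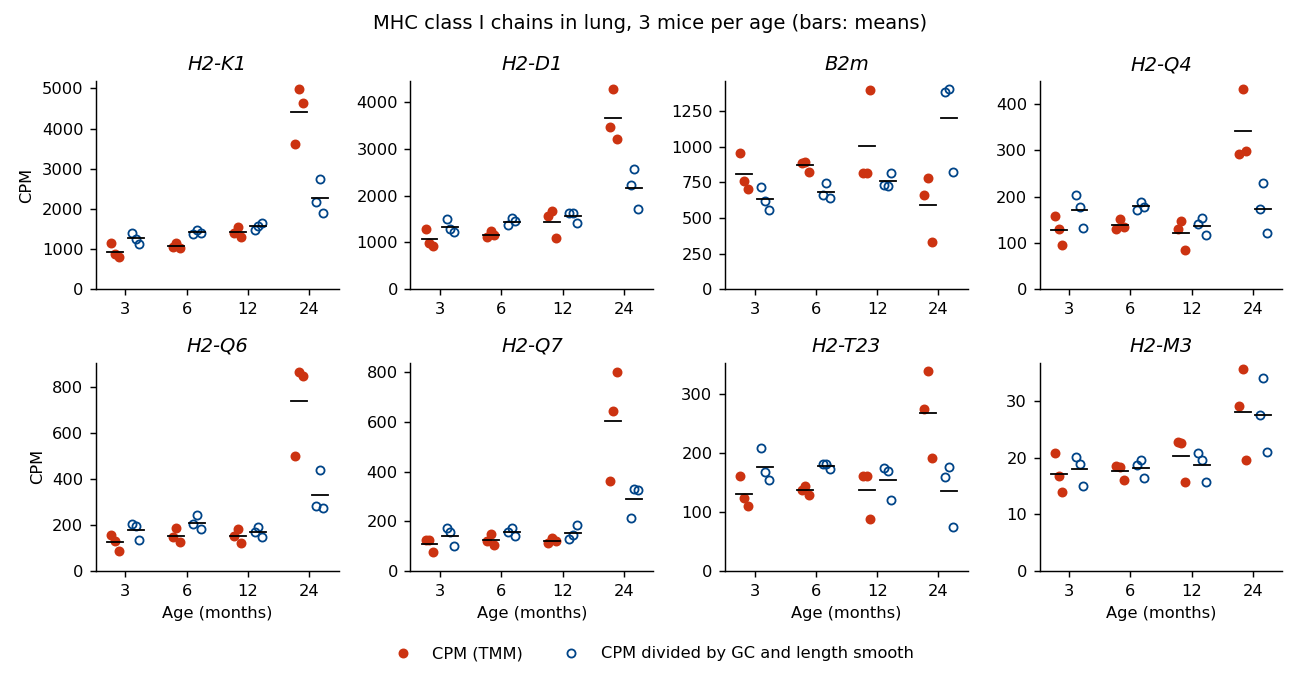
CPM of the 8 class I genes in each mouse (points) against age in months, with means as bars; filled points are CPM with TMM scaling and open points are CPM divided by the smooth on GC content and gene length. The filled points of H2-K1 reach 3611 to 4976 at 24 months against 794.6 to 1144 at 3 months, and for B2m the mean of the filled points is 590 at 24 months against 804 at 3 months, and that of the open points 1202 against 632.

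B2m, the light chain that all these heavy chains share, did not follow them without the offset. It had 954.6, 757.3 and 701.4 CPM at 3 months, 886.8, 892 and 824.4 at 6 months, 811.6, 812 and 1396 at 12 months, and 661, 780.9 and 328.9 at 24 months. The 24- and 3-month mice overlapped, and mouse 3 of 12 months was the highest and mouse 3 of 24 months the lowest of all 12. The log2 fold change of B2m at 24 against 3 months was -0.45 ± 0.29 (adjusted p = 0.167) without the offset and 0.93 ± 0.18 (adjusted p = 0.00052) with it, so the direction turned. With an offset on GC content alone it was 2.08 ± 0.17. Divided by the smooth, B2m was 1382, 1405 and 819.4 CPM at 24 months, against 719.8, 621.1 and 556.1 CPM at 3 months, and these groups did not overlap. Among the other genes of similar GC content, the median log2 fold change was -2.72, with the 10th percentile at -3.75 and the 90th at -1.27. The value of B2m lay above that range, and the values of the heavy chains H2-K1, H2-D1, H2-Q4, H2-Q6, H2-T23 and H2-M3 lay within the ranges of genes with their GC content. H2-Q7 was at 2.47, where the 90th percentile was 2.46. These ranges are matched on GC content and not on gene length, which is 860 bases for B2m and 1438 to 4209 for the heavy chains. The part of gene length in the place of B2m above its range was not tested.

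**Figure D2:**
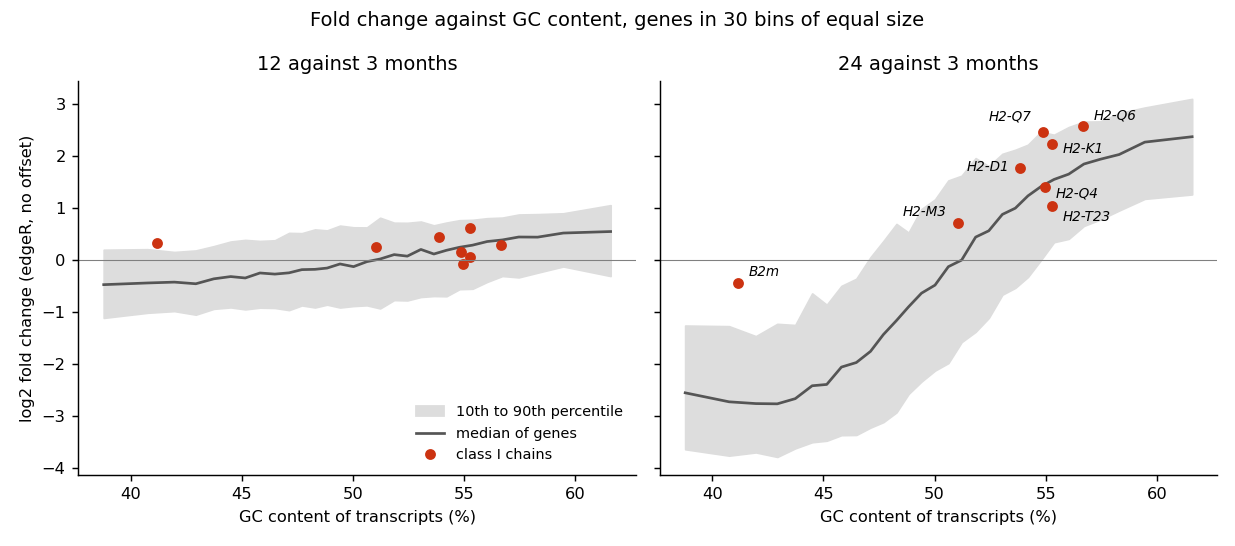
Log2 fold change (vertical axis, no offset) against the GC content of transcripts in percent (horizontal axis) at 12 against 3 months (left) and 24 against 3 months (right); the line is the median and the band the 10th to 90th percentile of the other genes in 30 bins, and points are the class I genes. At 24 against 3 months the line climbs with GC content, and B2m stands above the band at -0.45 where the median is -2.72. The bins take no account of gene length.

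H2-Q6 and H2-Q7, of the Q region, had the highest fold changes of the 8 genes without the offset. H2-Q6 had 498.1, 865.4 and 847.8 CPM at 24 months, against 155.3, 129.7 and 87.84 CPM at 3 months. H2-Q7 had 361.7, 642.4 and 801.4 CPM at 24 months, against 126, 123.8 and 76.79 CPM at 3 months. In both genes the 24-month mice lay above all mice of 3 months, and mouse 1 of 24 months was the lowest of its age. The log2 fold change was 2.57 ± 0.29 (adjusted p = 9.2e-07) for H2-Q6 and 2.47 ± 0.29 (adjusted p = 1.5e-06) for H2-Q7 without the offset. With it the values were 0.90 ± 0.20 (adjusted p = 0.0016) for H2-Q6 and 1.03 ± 0.21 (adjusted p = 0.00096) for H2-Q7. The pair share sequence, as 8.36% of the 100-base words of H2-Q6 transcripts also occur in H2-Q7, and 5.56% of those of H2-Q7 occur in H2-Q10. The labels do not say how reads on such stretches were counted, and levels of single Q region genes are uncertain to that extent. The summed CPM of H2-Q6 and H2-Q7 was 1338 ± 420 at 24 months and 233 ± 60.9 at 3 months (SD, n = 3 each), a log2 ratio of means of 2.52.

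H2-Q4 and H2-T23 were called higher without the offset and were not called with it. H2-Q4 had 292.9, 432 and 297.8 CPM at 24 months, against 158.9, 131.1 and 95.15 CPM at 3 months. H2-T23 had 274.3, 340.1 and 192.2 CPM at 24 months, against 160.6, 123.3 and 109.6 CPM at 3 months. Neither pair of groups overlapped in CPM, and both overlapped once the smooth was divided out. Both also overlapped without the smooth in FPKM, which are reads per kb of gene and M reads with no TMM scaling. The log2 fold change of H2-Q4 was 1.41 ± 0.26 (adjusted p = 0.0001) without the offset and 0.03 ± 0.20 (adjusted p = 0.907) with it. That of H2-T23 was 1.04 ± 0.26 (adjusted p = 0.0019) without the offset and -0.37 ± 0.25 (adjusted p = 0.211) with it, and without mouse 3 of 3 months it was 0.70 (adjusted p = 0.0514) with no offset.

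H2-M3, which presents formylated peptides, was the least abundant of the 8, and its fold change was the smallest of the 7 called without the offset. It had 29.14, 35.7 and 19.56 CPM at 24 months, against 20.84, 16.76 and 13.89 CPM at 3 months. The lowest mouse of 24 months lay below the highest of 3 months, so the groups overlapped. The log2 fold change was 0.72 ± 0.24 (adjusted p = 0.012) without the offset and 0.62 ± 0.18 (adjusted p = 0.0080) with it. The first call did not hold without mouse 2 of 24 months (0.51, adjusted p = 0.0833) or mouse 3 of 3 months (0.36, adjusted p = 0.246). It was also lost without mouse 1, 2 or 3 of 6 months (adjusted p = 0.0916, 0.0908 and 0.0882) or mouse 1 of 12 months (adjusted p = 0.0828). In those fits the median log2 fold change of all genes lay between -0.52 and -0.34, against -0.29 with all 12 libraries. The call held without mouse 1 of 3 months, where that median was -0.47, and without mouse 1 of 24 months, where it was -0.34. The part of this median in the calls was not tested. With the offset the call did not hold without mouse 2 of 24 months (0.44, adjusted p = 0.0556).

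In all, 7 of the 8 genes were called higher at 24 against 3 months, and B2m was not called. The background is high, as 38.2% of all genes tested were called higher, 44.6% lower and 82.8% in either direction. With the offset 6 of 8 were called higher and none lower, against 30.1% of all genes called higher, 26.4% lower and 56.5% in either direction. The median log2 fold change of the 8 genes was 1.59, against -0.29 over all genes tested, and with the offset 0.77, against 0.01. Scaling by total gene reads, chosen after seeing the scaling factors of the 24-month libraries, gave 5 of the 8 genes higher and B2m lower at -1.10 (adjusted p = 0.0097), with H2-T23 at 0.35 and H2-M3 at 0.03 not called. The split over all genes was then 4230 higher and 8544 lower, against 6128 higher and 7149 lower with TMM, and the median of all genes was -1.0. The authors' deposited table gives log2 fold changes of 2.30 for H2-K1, 1.84 for H2-D1 and -0.387 for B2m at this comparison. In whole lung, fewer cells of a type and less RNA per cell cannot be told apart.

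**Figure D3:**
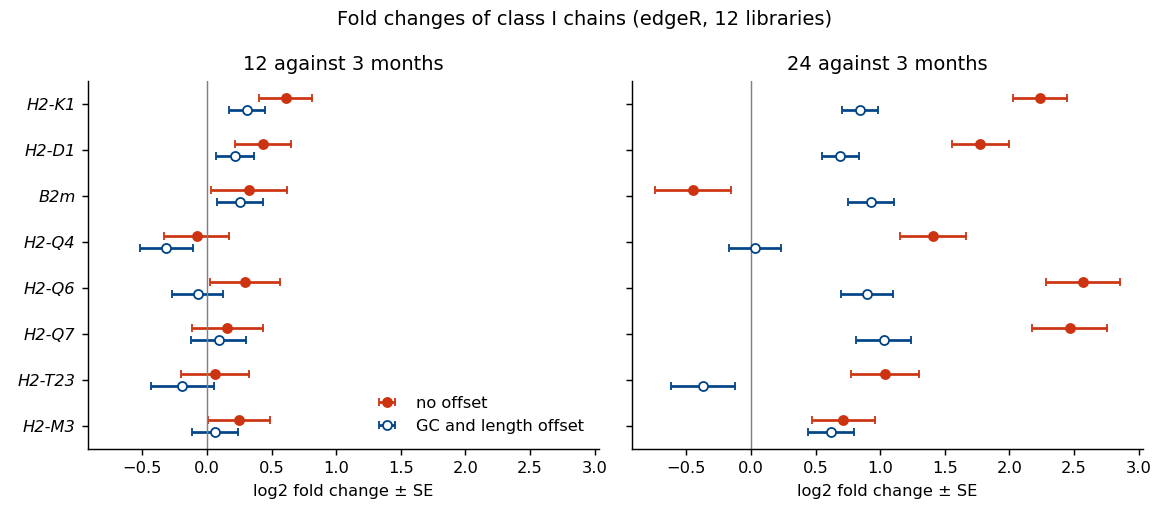
Log2 fold change ± SE of the 8 class I genes at 12 against 3 months (left) and 24 against 3 months (right); filled points are without and open points with the offset on GC content and gene length (edgeR, 12 libraries, 3 mice per age). At 24 against 3 months H2-T23 lies at 1.04 without and -0.37 with the offset, and B2m at -0.45 and 0.93.

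Before 24 months the differences were small. At 12 against 3 months 0 of the 8 genes were called in the edgeR fit, where 15.2% of all genes were called in either direction and 6.3% higher. With the offset 0 of 8 were called as well, where 19% of all genes were called in either direction and 10.5% higher. H2-K1 came nearest, at 0.61 ± 0.20 (adjusted p = 0.0532) without the offset and 0.31 ± 0.14 (adjusted p = 0.121) with it. Its 12- and 3-month mice did not overlap. Without the offset DESeq2 called H2-K1 (0.64, adjusted p = 0.0122), as did the authors' deposited table (0.559, adjusted p = 0.0138). Without the 24-month libraries it was 0.62 (adjusted p = 0.0119), and 0.32 (adjusted p = 0.0367) with the offset as well. The edgeR call on H2-K1 also appeared when mouse 1 of 3 months (adjusted p = 0.0308), mouse 3 of 12 months (adjusted p = 0.0437), or mouse 1 or 3 of 24 months (adjusted p = 0.0381 and 0.012) was left out. With the offset it appeared without mouse 3 of 24 months (0.32, adjusted p = 0.0468). The log2 fold changes of the other 7 genes lay between -0.08 for H2-Q4 and 0.44 for H2-D1. At 6 against 3 months the values lay between 0.04 for H2-M3 and 0.31 for H2-Q6, and 0 of 16042 genes were called by edgeR, 267 having an unadjusted p under 0.05, while DESeq2 called 6 genes, none of the 8. At 12 against 6 months 0 of 8 were called, where 2.03% of all genes were, and H2-K1 was at 0.40 ± 0.20 (adjusted p = 0.235).

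The step to 24 months carried most of the difference. At 24 against 12 months 6 heavy chain genes were called higher and B2m was called lower, where 37.3% of all genes were called higher and 42.5% lower. H2-K1 was at 1.63 ± 0.21 and B2m at -0.77 ± 0.29 (adjusted p = 0.0251). The call on B2m was lost without mouse 3 of 12 months (-0.47, adjusted p = 0.168) or mouse 3 of 24 months (-0.48, adjusted p = 0.0636). H2-M3 was not called (0.47, adjusted p = 0.0843), and it was called without mouse 3 of 24 months (0.67, adjusted p = 0.0085). With the offset 6 genes were called higher, where 21.3% of all genes were called higher and 21% lower. B2m was among them at 0.67 ± 0.18 (adjusted p = 0.0073), as was H2-K1 at 0.53 ± 0.14 (adjusted p = 0.0062). Single libraries decided some of these calls. B2m was lost without mouse 1 of 12 months (adjusted p = 0.0513), and H2-D1 and H2-M3 were lost without mouse 3 of 12 months or mouse 2 of 24 months, while H2-Q4 was called without mouse 3 of 24 months (0.55, adjusted p = 0.0188). In a trend on log2 age over the 12 mice 7 genes were called higher, where 35.4% of all genes were, and 6 with the offset, where 28.2% were. H2-K1 gained 0.72 ± 0.11 in log2 per doubling of age, or 0.27 ± 0.05 with the offset. When the 24-month libraries were left out, its gain was 0.31 (adjusted p = 0.0116), or 0.16 (adjusted p = 0.0364) with the offset. H2-K1 was the only one of the 8 genes then called, with or without the offset. Without it 5535 of 15908 genes were called, 2953 of them higher, and with it 4393 of 15816, 2629 of them higher. The comparisons with 3 months share the same 3 mice.

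Ratios within a library do not depend on its scaling. H2-K1 and H2-T23 have nearly the same GC content, and the ratio of their reads was 7.15 ± 0.09 at 3 months, 7.91 ± 0.21 at 6 months, 11.1 ± 3.25 at 12 months and 17.3 ± 5.98 at 24 months (SD, n = 3 each). At 24 months the ratio ranged from 13.2 to 24.2, above every mouse of 3 and 6 months, and mouse 3 of 12 months reached 14.8. The ratio of H2-K1 to H2-D1 in FPKM (fragments per kb of gene and M reads) was 1.36 ± 0.23 at 24 months and 0.983 ± 0.017 at 3 months, and these did not overlap. The ratio of H2-K1 to B2m in FPKM was 3.97 ± 2.18 at 24 months and 0.533 ± 0.015 at 3 months. H2-K1 and B2m differ in GC content, and the part of that difference in the ratio was not tested. The 2 classical chains together held 84.6% ± 1.59 of the summed heavy chain FPKM at 24 months and 83.8% ± 1.51 at 3 months, a difference smaller than the spread between mice of each age. At 12 months it was 87.2% ± 0.88, and its lowest mouse, at 86.6%, lay above every mouse of 3 and 6 months. Within the sum H2-K1 held 48.6% ± 2.64 at 24 months and 41.5% ± 0.43 at 3 months, and H2-D1 36.1% ± 4.03 at 24 months and 42.3% ± 1.12 at 3 months, and neither pair overlapped. The part of GC content in these shares was not tested either.

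**Figure D4:**
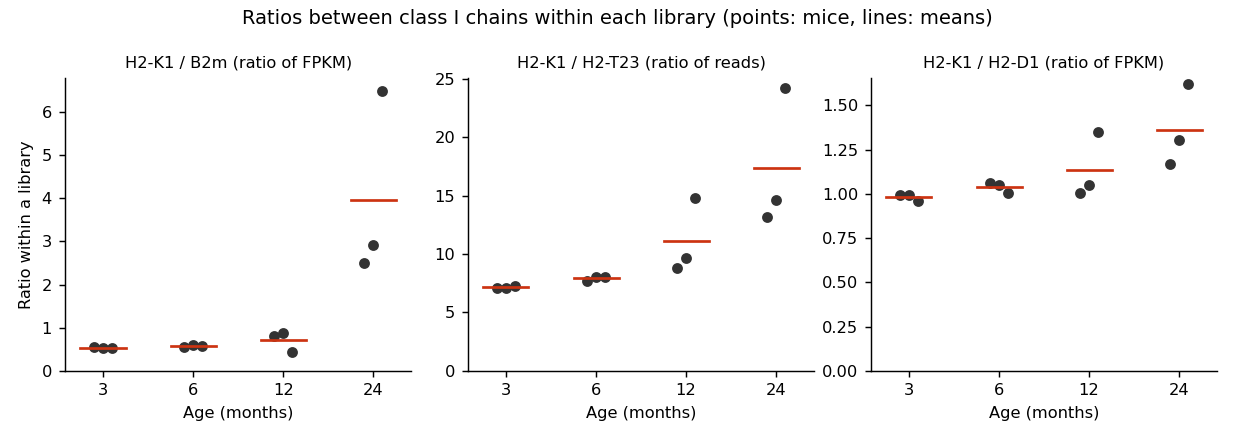
Ratio of H2-K1 to B2m in FPKM, of H2-K1 to H2-T23 in reads, and of H2-K1 to H2-D1 in FPKM within each library, against age in months; points are mice and lines means of 3 mice. The ratio to H2-T23 is 13.2 to 24.2 at 24 months, with means of 7.15 at 3 months and 7.91 at 6 months.

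Per length, B2m was the most abundant of the 8 at 3, 6 and 12 months, and H2-K1 at 24 months. At 3 months B2m had 1094 ± 176 FPKM, H2-D1 594 ± 106 and H2-K1 585 ± 111, and the last 2 overlapped. H2-Q6 followed with 69.8 ± 19.3 FPKM, H2-T23 with 58.0 ± 11.4 and H2-Q4 with 57.9 ± 14.5, each overlapping with the next, and H2-K1 lay apart above them. H2-Q7 had 30.3 ± 8.10 FPKM and H2-M3 14.0 ± 2.83, each apart from its neighbour. At 24 months H2-K1 had 1639 ± 374 FPKM and H2-D1 1240 ± 396, which overlapped, and B2m had 510 ± 271, which overlapped with H2-Q6 at 242 ± 65.9. H2-Q7 at 95.7 ± 23.2, H2-Q4 at 93.5 ± 33.9 and H2-T23 at 74.1 ± 32.0 FPKM overlapped, and H2-M3 at 14.3 ± 6.33 was the lowest. The deposited length of H2-Q7, 4209 bases, is near its genomic span of 4619 bases. With the length of its principal transcript, 1497 bases, H2-Q7 had 269 FPKM at 24 months and 85.3 at 3 months. The order below B2m depends on the length used. With principal transcripts for all genes, H2-K1 at 677 lay above H2-D1 at 594 at 3 months. H2-T23 then had 104 FPKM, H2-Q4 83.8 and H2-Q6 69.8, so H2-Q6 lay below these and H2-Q7.

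Among the other genes of the pathway, the enzymes and carriers that supply peptides split by gene. Each list's counts at 24 against 3 months stand against 38.2% of all genes called higher and 44.6% lower without the offset, and 30.1% and 26.4% with it. In the immunoproteasome, whose subunits cut peptides for class I, 4 of 5 genes were called higher at 24 against 3 months and none lower, with Psme2 not called at -0.28. The median of the list was 2.03, or 0.54 with the offset, against -0.29 and 0.01 over all genes tested. Psmb8, a catalytic subunit, had 136 ± 25.5 CPM at 24 months and 27.3 ± 7.87 at 3 months, a log2 fold change of 2.32 ± 0.23, or 1.13 ± 0.14 with the offset. Psmb9, Psmb10 and the activator subunit Psme1 were at 2.03, 2.28 and 1.76, and at 0.73, 0.54 and 0.50 with the offset, where all were called higher and Psme2 was called lower. Of 8 genes of peptide transport and loading, 4 were called higher and 3 lower, with a median of 0.81, and 3 and 2 with the offset, with a median of 0.14, and these counts were near the shares of all genes. Tap1, a subunit of the transporter, was at 3.10 ± 0.34 and 1.39 ± 0.23 with the offset, and Tapbp, which bridges the transporter and the heavy chain, at 2.65 ± 0.29 and 0.60 ± 0.11. Pdia3 and Erap1, a loading chaperone and a trimming peptidase, were at -2.91 and -3.02 without the offset, and with it Pdia3 was called at -1.46 and Erap1 was not called at -0.27 (adjusted p = 0.0797).

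Of 10 transcription factors of class I genes, 5 were called higher and 2 lower at 24 against 3 months, and 4 and 2 with the offset, with a median of 0.29 in both. Irf8 was at 2.62 ± 0.28 and 0.95 ± 0.15 with the offset, and Rela, a subunit of NF-kappa B, at 2.51 ± 0.28 and 0.42 ± 0.10. Rfxank, of the complex that binds the X box, was at 1.91 ± 0.24 and 0.39 ± 0.16, the second not called. Of 6 tested genes of interferon reception, 4 were called lower and none higher, and 3 and none with the offset, with medians of -1.17 and -0.26. Jak1 and Jak2, the kinases of these receptors, were at -3.14 ± 0.29 and -3.42 ± 0.29, and at -2.27 ± 0.24 and -0.67 ± 0.14 with the offset. The receptor chains Ifngr1 and Ifnar1 were at -1.08 and -1.26, and with the offset at 0.03, not called, and -0.55, called.

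Of 13 tested genes of receptors that read class I or belong to the same families, 3 were called higher and 9 lower. With the offset these were 4 and 2, and the medians were -1.92 without and -0.19 with it. Whether each of these receptors binds class I was not tested. Cd8b1, a chain of the CD8 coreceptor, was at 1.87 ± 0.30 with 12.8 ± 3.37 CPM at 24 months and 3.51 ± 0.89 at 3 months, and Pirb, an inhibitory receptor of myeloid and B cells, at 1.65 ± 0.20. With the offset Cd8b1 was at 1.87 and Pirb at 1.88. Klrc2 and Lilrb4 were at -3.37 and -1.96 without it, and with it Klrc2 was not called at -0.91 (adjusted p = 0.127) and Lilrb4 was called at -0.40 (adjusted p = 0.0477). Of 16 tested other class I and class I-like chains 7 were called higher and 5 lower, with and without the offset (medians 0.14 and 0.25), among them H2-Q10 at 2.85 ± 0.25, H2-T22 at 1.69 ± 0.23, Fcgrt, the neonatal Fc receptor, at 2.08 ± 0.26 and Mr1, which presents vitamin metabolites, at -3.53 ± 0.37. With the offset these were at 1.69 for H2-Q10, 1.36 for H2-T22, 0.57 for Fcgrt and -1.46 for Mr1, all called. H2-Q10 shares sequence with H2-Q7, as given above. Of 11 class II genes, which present peptides from outside the cell, 9 were called higher and 1 lower, and 10 and none with the offset, with medians of 2.63 and 1.28. H2-Ab1 had 2219 ± 1510 CPM at 24 months and 261 ± 48.6 at 3 months, and its log2 fold change was 3.09 ± 0.37, or 1.34 ± 0.20 with the offset. H2-Eb1, H2-DMa and H2-DMb1 were at 2.18, 3.21 and 2.02, and at 1.21, 1.59 and 1.24 with the offset. At 12 against 3 months the class II list had 3 of 11 genes called higher, where 6.3% of all genes were, H2-Eb1 (0.86 ± 0.24, adjusted p = 0.032) and H2-DMb1 (0.88 ± 0.22, adjusted p = 0.0197) among them.

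Markers of blood cells, many of which carry class I at high levels, had higher summed levels at 24 months. Gene by gene, leukocyte, NK cell and macrophage markers were called in both directions. No T cell, B cell, plasma cell or dendritic cell marker was called lower. The summed CPM of 3 leukocyte markers was 1248 to 4111 at 24 months and 312 to 363 at 3 months, with 2 markers called higher and 1 lower. For 3 T cell markers it was 39.3 to 79.6 at 24 months and 11.9 to 16.0 at 3 months, with 1 called higher and none lower. For 3 NK cell markers it was 38.1 to 57.9 at 24 months and 12.9 to 17 at 3 months, with 1 called higher and 2 lower. For 4 B cell markers the sum was 208 to 571 at 24 months and 59.5 to 120 at 3 months, with 3 called higher and none lower. For 4 plasma cell markers it was 2386 to 4102 at 24 months and 158 to 200 at 3 months, with all 4 called higher. For 3 macrophage markers it was 159 to 284 at 24 months and 125 to 146 at 3 months, with 2 called higher and 1 lower. For 3 dendritic cell markers it was 155 to 213 at 24 months and 91.0 to 103 at 3 months, with 1 called higher and none lower. Summed markers of endothelium, which also carries class I, were 3294 to 4997 at 24 months and 2031 to 2215 at 3 months, with 2 of 4 called higher and 2 lower. Higher sums were not particular to these cells. Type 1 cell markers summed to 8607 to 12365 at 24 months and 2915 to 3945 at 3 months. Sums for type 2 cells, smooth muscle and heart muscle were also higher at 24 months, without overlap. Those of fibroblasts were lower, and those of club cells and adipocytes overlapped. The sums carry no offset on GC content. No marker was at 0 in all 3 libraries of an age. Beside these counts, 38.2% of all genes were called higher and 44.6% lower. With the offset, where 30.1% of all genes were called higher and 26.4% lower, 3 of 3 leukocyte, 3 of 3 T cell, 4 of 4 plasma cell, 2 of 4 B cell and 2 of 3 dendritic cell markers were called higher and none of these lower. NK cell and macrophage markers then had 1 called higher and 1 lower each, and endothelium had none higher and 1 lower. The part of these cell types in the class I values was not tested.

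The genes whose pattern over the 12 libraries was most like that of H2-K1 were Rnf114, Thy1, Lgals3bp, Psme1 and Psmb8, with Pearson r of log2 CPM from 0.993 to 0.994. That likeness is common, since 15.3% of 10142 genes had an r over 0.95. Over deviations from the age means, the most alike were 4632428N05Rik (0.897), Ddx28, Slc25a11, Psme1 (0.874) and Bin1. By that measure H2-Q6 was at 0.926, H2-Q7 and H2-Q4 at 0.789 and 0.787, H2-D1 at 0.719, H2-T23 at 0.50 and H2-M3 at 0.476, and B2m at -0.002. All of these values share the libraries' depth and GC content and carry no test.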

How the data were processed

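The authors deposited a table with a read count per gene and library, FPKM, and their own comparisons. The counts, which the file headers call read counts, were the values tested. FPKM deposited by the authors served for levels between genes, and recomputing them from counts and gene lengths matched 235411 of 235411 values within a relative 1e-06. The deposited log2 fold changes, with their p-values, are quoted as the authors' own, and the deposited signal means per age were not used, 2 further signal columns of 3 months being set aside. Per the submitters' processing notes, the tools were TopHat, STAR 2.5 and HTSeq 0.6.1, with no roles given, and the build was mm10. The sources used here state neither strandedness nor the assignment of shared reads.

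The members, gene lists and tests were chosen with earlier results of these data known. Genes passing filterByExpr were tested with the edgeR quasi-likelihood test (edgeR 4.0.16, limma 3.58.1, R 4.3.3; TMM, robust, all 12 libraries, 1 mouse each), with Benjamini-Hochberg adjustment over 16042 genes per comparison and a threshold of 0.05. GC content came from GENCODE transcripts for 97.8% of gene IDs. The offset is a joint smooth (mgcv 1.9.3) of each library's deviation from the mean log2 CPM on GC content and gene length, over 15949 genes. DESeq2 1.42.0, voom, other scalings and filters, a replicate block and leaving out each mouse were alternatives. All 8 members were named, with up to 4 genes per list by smallest p and the 5 genes most like H2-K1 with a mean of at least 10 CPM, and Psme2 was named after its values were seen. The values of 1 listed gene are not reported here. Scripts were tested on simulated data.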

Additional observations from a re-analysis of the deposited data

How the results depend on the processing

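The count of class I genes called at 24 against 3 months was 5 to 7 with a mouse left out (5 to 6 with the offset), and at 24 against 12 months 6 to 7 (4 to 7 with the offset). Those fits tested 16245 to 16338 genes (16150 to 16240 with the offset). Over all genes they called 12827 to 13707 at 24 against 3 months (7868 to 9369 with the offset). At 24 against 12 months they called 12338 to 12779 (5856 to 6846 with the offset). At 12 against 3 months 1 gene was called under the GC content offset (B2m), DESeq2, voom, the 6 mice of the pair, without the 24-month libraries, and the joint offset without those libraries (H2-K1 in each of the last 5), and 0 to 1 with a mouse left out, with or without the offset. Over all genes DESeq2 called 3496 at 12 against 3 months and voom 3089, and the other settings are given at the end. At 12 against 6 months the GC content offset called 1 class I gene. For the trend, 4 were called with total gene reads as library size, where 11011 of 16042 genes were, 3860 of them higher. Without the 24-month libraries 1 was called, with or without the offset. Leaving out a mouse gave 5 to 7 (4 to 6 with the offset), where 10141 to 12675 of all genes were called (6783 to 8515 with the offset). With the length of the principal transcript 3 of 8 genes kept their rank by FPKM at 3 months, 4 at 6 and at 12 months, and 6 at 24 months.

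Directions turned for some genes. At 24 against 3 months B2m was at 0.93 with the joint offset, 2.08 with GC content alone and 0.91 with the joint offset and the replicate block, and H2-T23 at -0.37, -0.24 and -0.43. At 24 against 12 months these were 0.67, 1.33 and 0.64 for B2m, and -0.18, -0.083 and -0.22 for H2-T23. At 12 against 3 months, where none was called, they were -0.073, -0.0026 and -0.063 for H2-Q6, and -0.19, -0.15 and -0.20 for H2-T23, and without the 24-month libraries -0.073 and -0.19 with the joint offset. With total gene reads H2-T23 was at -0.061 at 12 against 3 months, and H2-M3 at -0.090 at 24 against 12 months. Leaving out a mouse gave, at 12 against 3 months, -0.27 to 0.12 for H2-Q4, -0.056 to 0.27 for H2-Q7 and -0.082 to 0.30 for H2-T23, and at 6 against 3 months -0.087 to 0.22 for H2-M3.
With the joint offset, leaving out a mouse gave -0.21 to 0.24 for H2-Q4 at 24 against 3 months, -0.25 to 0.046 for H2-Q6, -0.12 to 0.26 for H2-Q7 and -0.039 to 0.18 for H2-M3 at 12 against 3 months, and -0.41 to 0.12 for H2-T23 at 24 against 12 months. Apart from the offset's own turns, the cause was not tested.

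No pairing by mouse number was seen: over 18 pairs with the same number the correlation of deviations had a median of -0.054 (-0.25 to 0.19), and 4 exceeded 0.1. Whether mice with the same number were processed together was not tested. With the replicate block the count of class I genes called at 24 against 3 months was 7, where 13130 of 16042 genes were called. With the joint offset as well the count was 6, where 8796 of 15949 genes were called. The block changed no call on a class I gene at 24 against 3 months.

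Over all genes, calls at 12 against 3 months numbered 2433, against 1587 with the block, 5748 without the 24-month libraries (4745 with the joint offset), 3962 with the 6 mice of the pair, 3853 with the GC content offset, and 302 (without mouse 2 of 3 months) to 5928 (without mouse 3 of 24 months) with a mouse left out. At 12 against 6 months they numbered 325, against 17 with the block, 49 with total gene reads, 187 with RLE, 656 with voom, 1580 with DESeq2, 979 with the joint offset (759 with the block), 1871 with GC content alone, 2215 with the 6 mice of the pair, 3176 without the 24-month libraries (2510 with the joint offset), and 3 (without mouse 3 of 6 months) to 3431 (without mouse 3 of 24 months) with a mouse left out. At 24 against 12 months they numbered 12791, against 6736 with the joint offset (6451 with the block) and 7103 with GC content alone. At 24 against 3 months they numbered 13277, against 8796 with the joint offset and block, and for the trend 11615, against 7271 with both and 5535 without the 24-month libraries (4393 with the joint offset).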
